A study of Ovis aries with 32 samples.

Results

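The AP-1 genes described here were FOS, JUN (C-JUN in the array files), JUNB, JUND, ATF3 and BATF3. They were measured in ovine middle cerebral arteries that were either untreated or stimulated with phenylephrine (PHE). Every probe carrying the name of one of these 6 genes, out of 2509 genes that could be named, was taken, which gave 13 of the 15008 probes on the array. The name came from the array files for 7 of them, A_70_P016316 and A_70_P016317 of FOS, A_70_P016311 and A_70_P016313 of JUN, A_70_P041671 and A_70_P041672 of JUNB, and A_70_P041716 of JUND. The other 6 were named only because their mean signals matched those of a gene in the authors' table of genes altered by PHE. They were A_70_P001561 of FOS, A_70_P048401 of JUN, A_70_P050386 of JUNB, A_70_P060551 of JUND, A_70_P071436 of ATF3 and A_70_P064106 of BATF3. A gene enters that table only when it was found altered in these same animals, so the PHE responses of these 6 probes are not independent of how they were named. The main counts below are therefore also given for the other 7 alone.

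The study asked how alpha1-adrenergic stimulation changes transcription in cerebral arteries as they mature. Labelled cRNA made from the total RNA of 32 artery samples was hybridised to single-colour Agilent sheep arrays, 4 for each of 8 groups. Premature fetuses were 96 days of gestation. Near-term fetuses were 146 days of gestation by the labels and 140 days by the methods, newborn lambs 12 h by the labels and 5 days by the methods, and adults 2 years by the labels and 18 to 24 months, non-pregnant, by the methods. At each age 1 group was untreated and the other was exposed to 10 µM PHE, an agonist of the alpha1-adrenergic receptor, for 30 min in an organ bath. Each experiment drew on 4 animals, never both fetuses of a pair of twins, and surrounding fat and connective tissue had been removed from the arteries. Whether same-numbered untreated and PHE samples came from the same animal, and how long untreated segments stayed in the bath, is not given in the sources used here.

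AP-1 is a dimer of basic leucine zipper proteins that binds DNA, in which Fos proteins pair with Jun proteins, Jun proteins also pair with each other, and ATF and BATF proteins serve as further partners. FOS, JUN, JUNB and ATF3 are immediate early genes, transcribed within minutes of a stimulus through MAP kinase and calcium signalling without new protein synthesis. In vascular smooth muscle they are known to be induced by vasoconstrictors, growth factors, stretch and injury.

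A level is the log2 of the processed signal minus the same array's 75th percentile, so that a level of 0 equals that percentile and 1 unit is a doubling. Differences between groups were tested with limma over all probes, and a probe was called where the adjusted p was below 0.05 and the change at least 1.5-fold. The 75th percentile itself was 125 on near-term untreated array 4, 373 on near-term PHE array 1 and 397 on near-term untreated array 3. On the other 29 arrays it lay between 606 and 1729.9, so these 3 near-term arrays were the dimmest. Array 4 of the near-term untreated group had a percentile only 1.43 times its median background. The 8 premature arrays shared 1 slide and the 8 newborn arrays another. Slide 1 held the 4 near-term PHE arrays with near-term untreated array 4, slide 3 held the 4 adult PHE arrays with adult untreated arrays 1 and 2 and near-term untreated arrays 2 and 3, and slide 2 held near-term untreated array 1 with adult untreated arrays 3 and 4. With slide as a block, the near-term response to PHE is therefore that within slide 1, and rests on a single untreated array, number 4, the dimmest of all. The premature and newborn arrays were scanned on one day and the near-term and adult arrays on another, so in comparisons that cross the days, the scan cannot be told apart from age.

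Smooth muscle was marked by CNN1, encoding calponin, which was well above background on all 32 arrays and did not pass the test for PHE at any age, with differences of −0.26, −0.69, −0.21 and 0.12 in premature, near-term, newborn and adult arteries. CALD1 was the only other one of 8 smooth muscle markers with a named probe. Its name came from the table of altered genes, and it was well above background on no near-term untreated or adult PHE array. TIE1, the only one of 8 endothelial markers with a named probe, was well above background on no newborn PHE or adult PHE array. It passed as higher in near-term arteries (adjusted p = 0.00176), where it was well above background on 1 untreated and 4 PHE arrays, so it was tested through the PHE group only. TIE1 and the markers given below as risen or fallen (CD68, HBA1, COL1A1, COL1A2 and TUBB3) were named only through the table of altered genes, so their changes follow in part from how they were named. The markers named independently of it that could be tested (CNN1, CD3E, HBB, DCN, GFAP, FABP4 and LPL) passed the PHE test at no age at which they were tested. Of 5 leukocyte markers with a probe out of 7, CD68 rose by 0.99 in near-term, 1.45 in newborn and 1.24 in adult arteries. CD14 was at 0.99, −1.03, 1.06 and 1.21 and CD3E at −0.50 in premature and −1.34 in near-term arteries, none of which passed. Of 2 red cell markers out of 5, HBA1 fell in premature (−1.96) and near-term (−2.38) arteries, where HBB, at −0.71 and −1.10, did not pass. Of 3 fibroblast markers out of 5, COL1A1 and COL1A2 rose in near-term arteries by 4.22 and 4.22, and COL1A2 also in premature arteries by 1.89, while DCN passed at no age. Of 3 brain markers out of 6, TUBB3 rose by 1.07, 1.23 and 0.96 in premature, near-term and newborn arteries, GFAP did not pass at −0.72, 0.058 and −0.04 in premature, near-term and adult arteries, and AQP4 was well above background on none of the premature, newborn and adult arrays. Of 3 fat markers out of 5, FABP4 was at −1.33 near term (adjusted p = 0.141), LPL at 0.51 in premature arteries (0.600), and LEP was well above background on too few arrays to be tested.

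The summed signal of the red cell markers, most of it from HBA1 and expressed as multiples of the array's 75th percentile, was 40.9, 50.9, 27.7 and 44.0 on the premature untreated arrays and 10.9, 11.8, 12.5 and 11.8 on the premature PHE arrays. In near-term arteries the same sum was 12.6, 13.9, 23.3 and 15.1 without and 7.58, 1.51, 4.74 and 2.11 with PHE. All PHE sums lay below all untreated sums at both fetal ages, as they did in newborns (31.7, 25.4, 37.9 and 23.7 against 15.3, 16.7, 16.8 and 12.8). The fibroblast sum, in which the highest mean near term was that of DCN without and COL1A1 with PHE, was 19.2, 75.2, 20.3 and 38.5 on near-term untreated and 77.8, 42.7, 113 and 34.5 on near-term PHE arrays, which overlapped. The leukocyte sum, led by CD14, was 1.91, 2.19, 2.05 and 2.17 on premature untreated and 3.13, 5.43, 3.08 and 4.46 on premature PHE arrays, without overlap, and it overlapped at the other ages. The brain sum, led by TUBB3, was 14.0, 10.1, 12.4 and 6.45 on near-term untreated and 17.5, 33.7, 20.8 and 26.2 on near-term PHE arrays, and PHE sums were above all untreated sums in premature and newborn arteries too. HBA1, COL1A1, CD14 and TUBB3 in these sums were named only through the table. The part of these cell types in the AP-1 responses was not tested, and in whole arteries a change in cell content and a change in RNA per cell cannot be told apart.

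In premature arteries 10 of 13 AP-1 probes were higher with PHE, against 9.54% of all 10162 probes tested. In near-term arteries 12 of 13 were higher (17.9% of all probes), in newborn arteries 6 of 13 (6.29%), and in adult arteries 8 of the 12 tested (3.16%). No AP-1 probe was lower at any age in limma, and none had an unadjusted p below 0.05 in that direction, where 10, 12, 10 and 12 probes were higher at that unadjusted threshold. Among the 7 probes named in the array files, 5 were higher in premature, 7 in near-term, 3 in newborn and 4 in adult arteries. For FOS, JUN and JUNB these include a pair of probes from the same source record. The r within each pair was 0.998, 0.957 and 0.997 over the 32 arrays, so the 7 are not separate genes. Since the other 6 were named from a table of altered genes, nothing is read from the counts over all 13 against the share of all probes. The median difference of the 7 was 4.13, 6.03, 2.29 and 4.72 at the 4 ages, against −0.08, −0.082, −0.075 and −0.044 over all probes. Testing required a signal well above background on all arrays of 1 of the groups compared, and 1, 3, 2 and 1 of the AP-1 probes met this only through the PHE group, where a probe has to be high. The newborn count was 10 without newborn untreated array 4, and 9 with replicate number as a block, the paired fit, which applies to the premature and newborn samples. With the 3 dimmest near-term arrays left out together, a choice made after seeing the data, the counts were 10, 12, 9 and 10. With the test of the study's methods, which takes each probe and age alone, they were 10, 11, 7 and 9 unadjusted, as the methods use it, and 10, 2, 6 and 0 with Benjamini-Hochberg adjustment. Unadjusted, near-term JUND A_70_P060551 was the only call lost. Adjusted, only JUNB A_70_P041672 and A_70_P050386 passed near term and no AP-1 probe in adults.

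**Figure D1:**
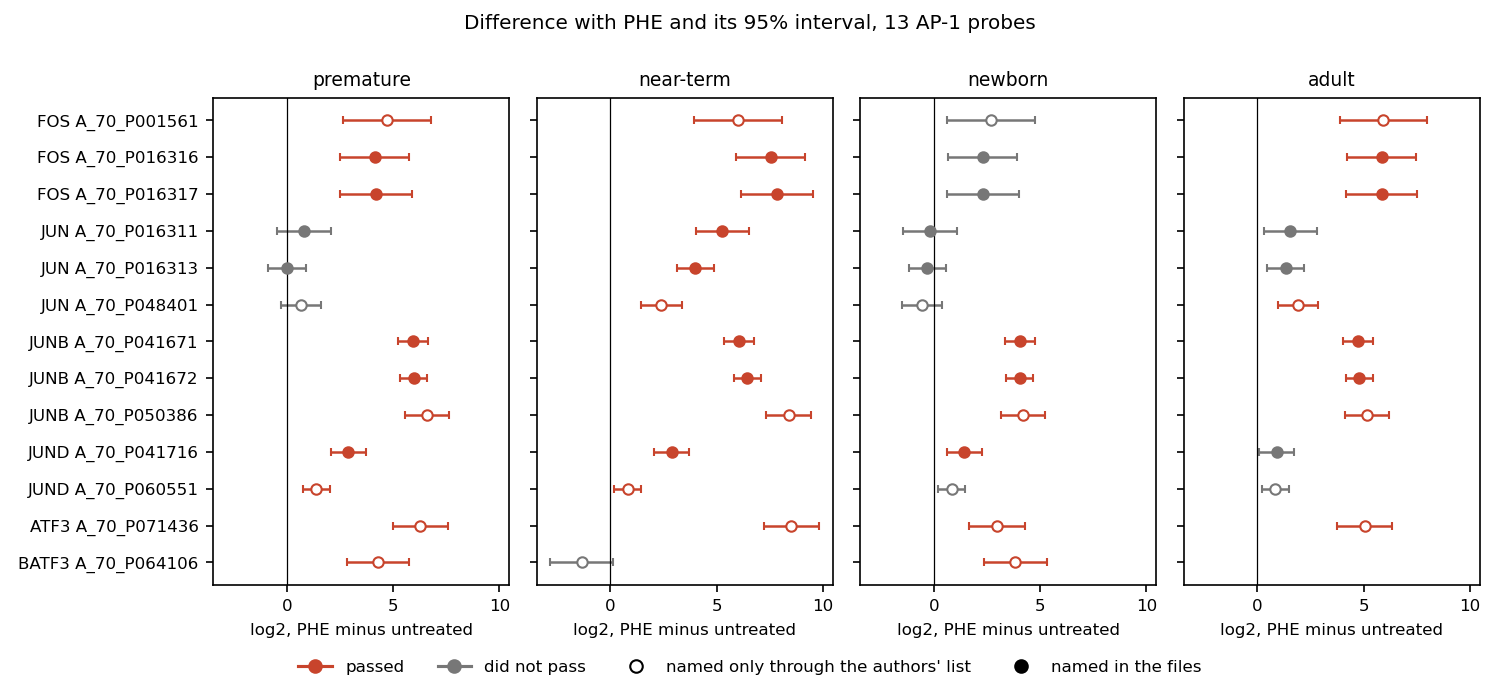
Difference between PHE and untreated arteries (log2, points) with the 95% confidence interval of the limma fit (lines) for each AP-1 probe at each age. JUNB and ATF3 lie far above 0 at every age, while the JUN probes lie above 0 in near-term arteries and have intervals that include 0 in premature and newborn arteries. Open points are probes named through the authors' table, and grey ones did not pass.

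FOS encodes the Fos protein, which binds DNA only as a dimer with a Jun partner. On probe A_70_P016316 the premature untreated arrays read −1.62, −1.62, −1.88 and −1.20 and the premature PHE arrays 3.15, 2.27, 2.89 and 1.89. Every PHE array was above every untreated array, with means of 2.55 ± 0.58 (SD, n = 4) and −1.58 ± 0.28 (SD, n = 4), a 17.5-fold rise (log2 4.13, SE 0.80, adjusted p = 0.000403). Near-term FOS was −2.97, −1.79, −3.14 and −2.50 on untreated and 3.71, 4.22, 5.82 and 6.02 on PHE arrays. This separation was the widest of the 4 ages, 186-fold (log2 7.54, SE 0.80, adjusted p = 1.07e-07; range 6.60e-09 to 0.0659). The adult arrays gave −0.26, −3.85, −1.39 and −3.51 untreated and 3.92, 4.33, 3.76 and 2.37 with PHE, also without overlap, a 57.6-fold rise (log2 5.85, SE 0.79, adjusted p = 7.12e-06; range 5.55e-07 to 0.216).

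In newborn arteries the FOS groups overlapped, while within each same-numbered pair FOS was higher with PHE on all 3 probes. On A_70_P016316 the untreated arrays read 0.73, −2.62, 0.59 and 2.30, and the PHE arrays 1.15, 2.09, 3.27 and 3.67. Untreated array 4, at 2.30, was above PHE arrays 1 and 2, and the untreated SD was 2.07 compared with 0.28 in premature arteries. The difference of 2.29 (SE 0.80, adjusted p = 0.0566) did not pass. It passed in the paired fit (adjusted p = 0.0326) and with the 3 dimmest arrays left out together (0.0480). It also passed without newborn untreated array 4 (2.98, adjusted p = 0.0172) or newborn PHE array 1 (2.76, adjusted p = 0.0355). With 1 array left out at a time the difference ran from 1.34 to 2.98. Leaving out near-term PHE array 1, adult untreated array 1 or adult untreated array 2, which enter only the shared spread, gave adjusted p of 0.0466, 0.0429 and 0.0498, and over all alternatives it ran from 0.0172 to 0.302.

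Probe A_70_P016317, from the same source record, gave 4.18, 7.83, 2.30 and 5.85 at the 4 ages, and A_70_P001561, named through the table, 4.73, 6.02, 2.70 and 5.92. Both passed where A_70_P016316 passed and not in newborn arteries (adjusted p = 0.0645 and 0.0795), where both passed in the paired fit (0.0461 and 0.0399; ranges 0.0195 to 0.332 and 0.0321 to 0.397). Leaving out newborn untreated array 4 also carried them past the threshold, at 0.0195 and 0.0321, as for A_70_P016317 did newborn PHE array 1 (0.0393) or adult untreated array 1 (0.0470). So did leaving out the 3 dimmest arrays together for A_70_P016317 (0.0498) and quantile normalisation for A_70_P001561 (0.0475). With 1 array left out the newborn differences ran from 1.33 to 3.01 for A_70_P016317 and from 1.45 to 3.48 for A_70_P001561. Of the near-term untreated arrays, A_70_P016317 was well above background on 2 and A_70_P001561 on 3. A_70_P001561 was likewise well above background on 3 newborn untreated and 3 adult untreated arrays. Near term both probes, and in newborns and adults A_70_P001561, were tested through the PHE group only. These differences rest in part on levels not well above background. Across the 32 arrays the FOS probes correlated with r of 0.998, 0.965 and 0.954. By group mean, FOS on A_70_P016316 ran from near-term PHE (4.94 ± 1.15) through adult PHE (3.60 ± 0.85), premature PHE and newborn PHE (2.54 ± 1.15) to newborn (0.25 ± 2.07), premature, adult and near-term untreated (−2.60 ± 0.60), and each group overlapped the next. On slide 1 the near-term difference of A_70_P016316 was 7.44 against the single untreated array there, and on slide 3 the adult difference was 5.65 against 2 untreated arrays.

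JUN encodes c-Jun, the cellular form of a viral oncogene product, whose own promoter responds to AP-1. On A_70_P016313 the near-term untreated arrays read 0.56, −0.094, 0.72 and 1.83 and the near-term PHE arrays 4.73, 4.11, 5.55 and 4.58. The lowest PHE array was above the highest untreated array, and JUN rose 15.9-fold (log2 3.99, SE 0.43, adjusted p = 1.33e-07; range 2.76e-08 to 0.0736). Premature JUN was 1.39, 0.64, 0.33 and 0.93 untreated and 0.99, 0.74, 1.27 and 0.28 with PHE, which overlapped throughout, with a difference of −0.0019 (SE 0.43, adjusted p = 0.998) whose sign turned under quantile normalisation (0.0055) and normexp background correction (0.15). It also turned without premature untreated array 1 (0.19) or 4 (0.033) or without premature PHE array 2 (0.025) or 4 (0.18). Newborn JUN was 1.53, 1.20, 1.16 and 1.84 untreated and 0.75, 1.34, 1.18 and 1.18 with PHE, a difference of −0.32 (SE 0.43, adjusted p = 0.743). Neither difference passed on this probe. The 95% intervals were −0.88 to 0.88 in premature and −1.20 to 0.56 in newborn arteries. They leave room for a change of more than 1.5-fold, in newborns only as a fall.

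Untreated adult arrays of JUN on A_70_P016313 lay apart by slide, and with 2 arrays on each, slide and animal cannot be told apart. The untreated arrays read 0.24, −0.34, 2.01 and 1.85, the first 2 on slide 3 and the last 2 on slide 2, and the PHE arrays, all on slide 3, 2.59, 2.48, 2.55 and 1.51. Untreated arrays 3 and 4 reached into the PHE group and 1 and 2 did not. The difference of 1.34 (SE 0.43, adjusted p = 0.0767) did not pass, but it was 2.33 within slide 3 and 1.98 with slide as a block (adjusted p = 0.00162; range over alternatives 0.00162 to 0.533). It also passed without adult untreated array 3 (0.0173), adult untreated array 4 (0.0333), adult PHE array 4 (0.0443) or near-term untreated array 4 (0.0474). Probe A_70_P016311, from the same source record, behaved likewise, at 1.55 (adjusted p = 0.206) without and 2.44 (adjusted p = 0.0260) with the slide block, 2.94 within slide 3, and 2.18 (adjusted p = 0.0276) without adult untreated array 3, in a range of 0.0260 to 0.638. With 1 array left out at a time its difference ran from 0.85 to 2.18. Only A_70_P048401, whose name came from the table entry for adults, passed with all arrays and no slide block.

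On A_70_P048401 the adult untreated arrays read 0.36, −0.16, −0.30 and 0.33 and the PHE arrays 2.39, 1.34, 2.63 and 1.49. All PHE arrays were above all untreated arrays, a 3.74-fold rise (log2 1.90, SE 0.46, adjusted p = 0.0115), which no longer passed without adult PHE array 1 (0.0576) or 3 (0.0589; range 0.00571 to 0.242). In near-term arteries A_70_P016311 rose 38.6-fold (log2 5.27, SE 0.62, adjusted p = 5.96e-07; range 6.41e-08 to 0.121) and A_70_P048401 5.25-fold (log2 2.39, SE 0.46, adjusted p = 0.000242; range 0.000123 to 0.134), both without overlap. So all 3 JUN probes passed as higher in near-term arteries and none passed in premature or newborn arteries. In premature and newborn arteries A_70_P016311 gave 0.80 and −0.18 and A_70_P048401 0.65 and −0.56. The newborn sign of A_70_P016311 turned without newborn untreated array 4 (0.041) or newborn PHE array 1 (0.034). The probes were less alike than those of FOS, with r of 0.957, 0.830 and 0.784 over 32 arrays. On A_70_P016313 near-term PHE (4.74 ± 0.60) stood above adult PHE (2.28 ± 0.51) without overlap. Below them, from newborn untreated (1.43 ± 0.32) down to near-term untreated (0.75 ± 0.80), each group overlapped the next, and adult PHE overlapped newborn untreated arteries. Within slide 1 the near-term differences of A_70_P016313, A_70_P016311 and A_70_P048401 were 2.91, 5.12 and 2.88 against 1 untreated array.

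**Figure D2:**
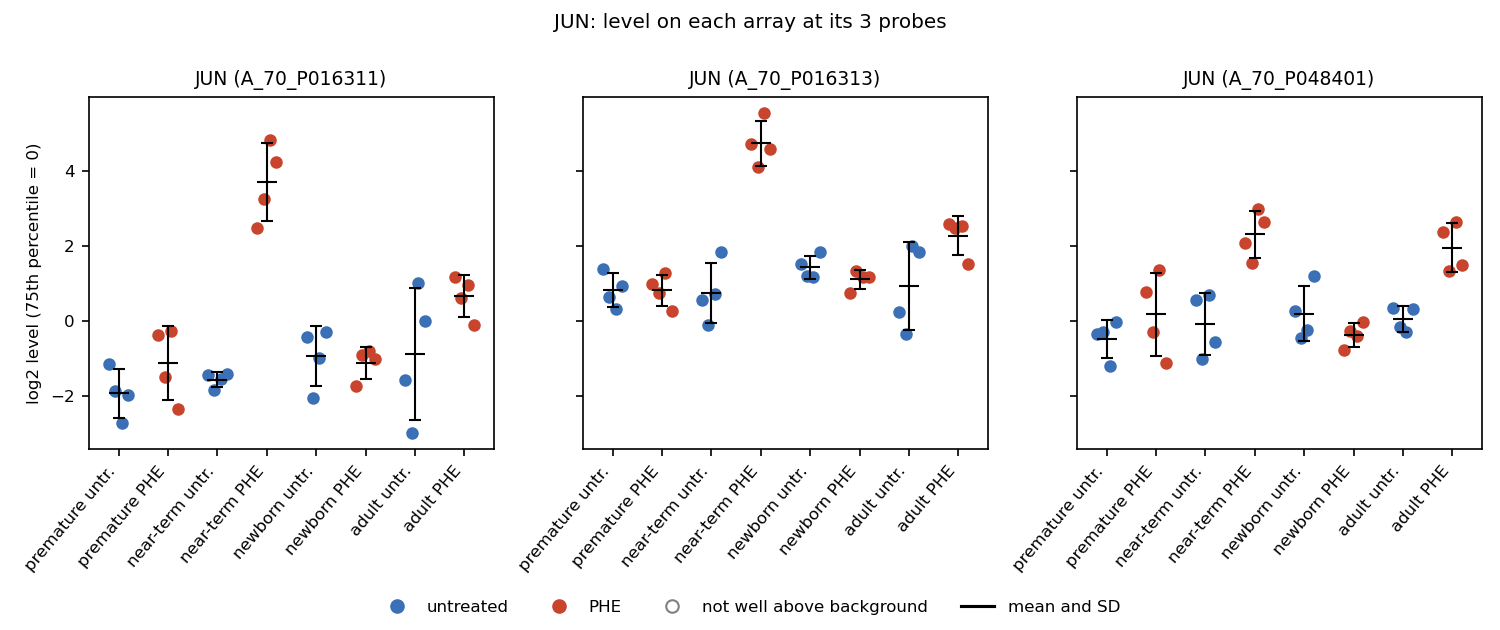
Level of each JUN probe on every array (points; log2 relative to the array's 75th percentile) with the group mean and SD, by age and treatment. All near-term PHE arrays lie above all near-term untreated arrays on each of the 3 probes, while premature and newborn groups overlap.

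JUNB encodes a Jun protein that dimerises with Fos and is itself induced early. On A_70_P041671 the premature untreated arrays read −1.72, −1.84, −2.24 and −1.52 and the PHE arrays 4.15, 4.04, 4.22 and 3.94. The 4 PHE arrays lay within a narrow band far above the untreated ones, a 60.4-fold rise (log2 5.92, SE 0.35, adjusted p = 1.70e-12). Near-term JUNB was −1.12, −0.89, −0.79 and 0.40 untreated and 5.24, 5.24, 5.48 and 5.77 with PHE, again without overlap, 65.4-fold (log2 6.03, SE 0.35, adjusted p = 7.15e-13; range 4.39e-14 to 0.0555). Newborn JUNB was −1.13, −1.70, −0.052 and 0.48 untreated and 3.14, 3.53, 3.32 and 3.74 with PHE, 16.4-fold (log2 4.04, SE 0.34, adjusted p = 5.25e-09). The untreated newborn arrays spread widest, with array 4 at 0.48 and array 2 at −1.70, yet all stayed below the PHE arrays. Adult JUNB was 0.94, −0.28, 0.89 and 0.49 untreated and 5.26, 5.31, 5.29 and 5.05 with PHE, 26.3-fold (log2 4.72, SE 0.34, adjusted p = 6.90e-11; range 5.01e-12 to 0.0830).

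The other JUNB probes passed at every age without overlap, A_70_P041672 with 5.96, 6.45, 4.04 and 4.80 and the table-named A_70_P050386 with 6.60, 8.39, 4.18 and 5.15. Their r with A_70_P041671 over 32 arrays was 0.997 and 0.966. Within slide 1 the near-term difference of A_70_P041671 was 5.04, and within slide 3 the adult difference was 4.90. The order of levels on A_70_P041671 began with near-term PHE (5.43 ± 0.25) and adult PHE (5.23 ± 0.12), which overlapped. Premature PHE (4.09 ± 0.12) and newborn PHE (3.43 ± 0.26) followed, each apart from its neighbours. Adult (0.51 ± 0.57), near-term (−0.60 ± 0.68), newborn (−0.60 ± 0.99) and premature untreated arteries (−1.83 ± 0.30) came last, and each overlapped the next.

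**Figure D3:**
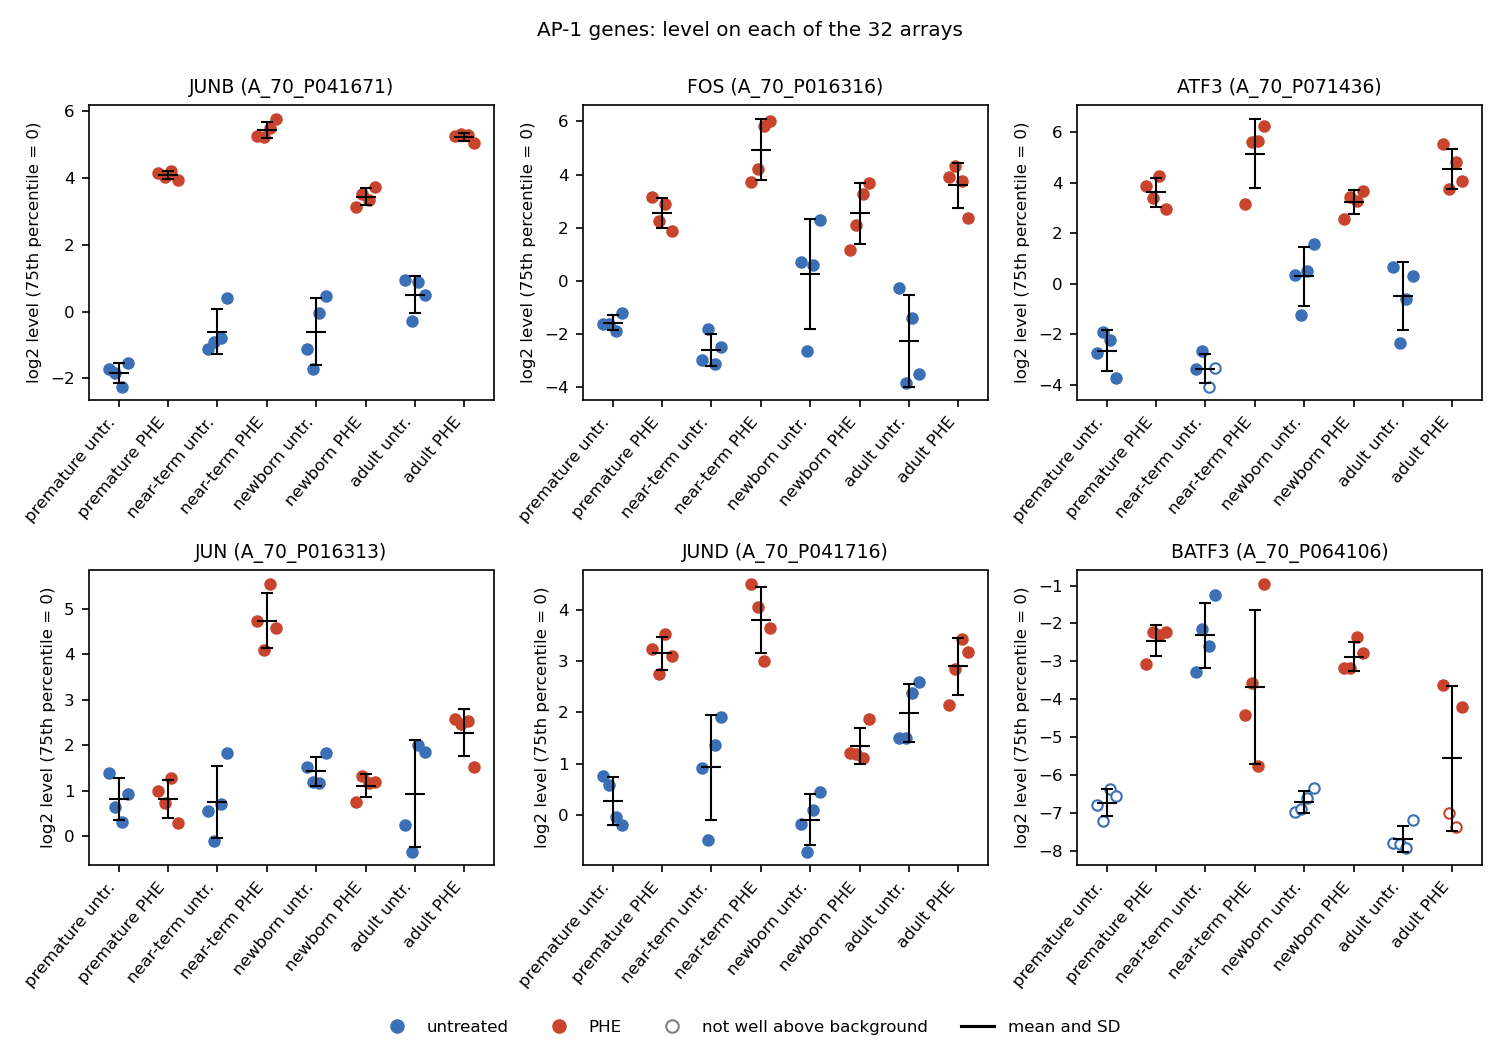
Level of each of the 6 AP-1 genes on every array (points; log2 relative to the array's 75th percentile), with group mean and SD, by age and treatment. JUNB and ATF3 separate PHE from untreated arrays at each age, FOS overlaps in newborn arteries, and BATF3 is well above background on no untreated premature, newborn or adult array.

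JUND encodes the Jun protein usually present at a steady level in resting cells. Its probes differed in their response. On A_70_P041716, named in the array files, the premature arrays read 0.76, 0.58, −0.039 and −0.21 untreated and 3.24, 2.75, 3.52 and 3.09 with PHE. Near-term arrays gave 0.92, −0.49, 1.36 and 1.91 untreated and 4.50, 4.06, 2.99 and 3.65 with PHE. At both ages every PHE array exceeded every untreated array, and JUND rose 7.34-fold in each (log2 2.88 and 2.88, adjusted p = 6.22e-06 and 6.69e-06; near-term range 3.55e-07 to 0.134). Newborn JUND was −0.18, −0.72, 0.086 and 0.44 untreated and 1.20, 1.18, 1.12 and 1.87 with PHE, a 2.70-fold rise (log2 1.43, SE 0.40, adjusted p = 0.0167) that did not pass without newborn untreated array 2 (0.0728) or newborn PHE array 4 (0.0745; range 0.00417 to 0.0745). Adult JUND was 1.51, 1.49, 2.37 and 2.58 untreated and 2.14, 2.84, 3.43 and 3.18 with PHE. These groups overlapped, and the difference of 0.91 (SE 0.40, adjusted p = 0.281) did not pass. Within slide 1 the near-term difference was 1.89, and within slide 3 the adult one 1.40.

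The table-named A_70_P060551 rose in premature arteries, from 5.12, 4.50, 4.44 and 4.63 to 5.99, 5.89, 6.35 and 5.94, with no overlap and a 2.58-fold change (log2 1.37, SE 0.31, adjusted p = 0.00199). Near-term arrays gave 5.73, 5.28, 6.65 and 6.44 untreated and 7.58, 7.11, 6.09 and 6.57 with PHE. These groups overlapped, and although the difference of 0.81 passed (SE 0.31, adjusted p = 0.0363), it was 0.40 with slide as a block (adjusted p = 0.547), a comparison with untreated array 4 alone. It also failed with scaling to the array median (0.213), with no filter on dim probes (0.0520), with only the near-term arrays in the fit (0.261), and without near-term untreated array 1 (0.0923) or 2 (0.148) or near-term PHE array 1 (0.143) or 2 (0.100), in a range of 0.000134 to 0.547. Newborn and adult differences of this probe were 0.83 (adjusted p = 0.0762) and 0.84 (0.154), neither of which passed. The newborn one passed with only the newborn arrays in the fit (0.0301) and without newborn untreated array 4 (0.0385) or near-term PHE array 1 (0.0480; range 0.0218 to 0.291), and under quantile normalisation both did (0.0303 and 0.0276; adult range 0.0276 to 0.541). The r between the JUND probes was 0.844 over 32 arrays. On A_70_P041716 group means fell from near-term PHE (3.80 ± 0.64) to newborn untreated (−0.092 ± 0.49), and on A_70_P060551 from near-term PHE (6.84 ± 0.65) to premature untreated (4.67 ± 0.31). Each group overlapped the next on both probes.

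ATF3 encodes a stress-induced basic leucine zipper protein that dimerises with Jun proteins. The only probe with its name, A_70_P071436, was named through the table at all 4 ages. The premature arrays read −2.72, −1.92, −2.21 and −3.75 untreated and 3.87, 3.39, 4.29 and 2.97 with PHE. Without overlap, ATF3 rose 77.9-fold (log2 6.28, SE 0.64, adjusted p = 3.72e-08). Near-term arrays gave −3.37, −2.65, −4.07 and −3.35 untreated, of which arrays 1 and 2 were well above background, and 3.15, 5.61, 5.65 and 6.24 with PHE. The rise was 368-fold (log2 8.52, SE 0.64, adjusted p = 1.26e-10; range 6.05e-12 to 0.0736), a size that rests in part on the 2 untreated levels not well above background. Newborn ATF3 was 0.35, −1.25, 0.49 and 1.56 untreated and 2.58, 3.44, 3.26 and 3.69 with PHE, 7.75-fold (log2 2.95, SE 0.64, adjusted p = 0.00193). Adult ATF3 was 0.67, −2.35, −0.61 and 0.33 untreated and 5.55, 3.74, 4.82 and 4.09 with PHE, 33.0-fold (log2 5.04, SE 0.64, adjusted p = 2.23e-06; range 2.08e-07 to 0.181) and 5.39 within slide 3. At each age all PHE arrays were above all untreated arrays. The group means ran near-term, adult, premature and newborn PHE (5.16 ± 1.37, 4.55 ± 0.80, 3.63 ± 0.57 and 3.24 ± 0.48), then newborn, adult, premature and near-term untreated (0.29 ± 1.16, −0.49 ± 1.35, −2.65 ± 0.81 and −3.36 ± 0.58). Only newborn PHE and newborn untreated arteries, the neighbours in the middle of this order, did not overlap.

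BATF3 encodes a small basic leucine zipper protein that pairs with Jun proteins and lacks a transactivation domain. The only probe with its name, A_70_P064106, was named through the premature and newborn table entries. The premature untreated arrays read −6.78, −7.21, −6.37 and −6.55, none well above background, and the PHE arrays −3.07, −2.22, −2.30 and −2.23, all well above it. Where no array of a group was well above background, the fold is given as at least a value, on the signal as scaled here. It was computed against the higher of each array's lowest well-above-background level, over all probes, and the probe's own level. With another background correction the difference can be smaller than that value. BATF3 was tested at the premature and newborn ages through the PHE group only, and its name came from the altered genes of those ages, so both calls follow in part from these choices. With that bound, premature BATF3 was at least 6.43-fold higher with PHE (adjusted p = 7.29e-05). Newborn arrays gave −6.98, −6.89, −6.61 and −6.34 untreated, none well above background, and −3.17, −3.16, −2.36 and −2.78 with PHE, at least 3.80-fold higher (adjusted p = 0.000413). Both calls were lost with normexp background correction, at 0.66 (adjusted p = 0.439, range 1.96e-06 to 0.439) and 1.49 (adjusted p = 0.0879, range 6.36e-06 to 0.0879). These log2 differences were smaller than the bounds above.

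Near-term BATF3 was well above background on all 8 arrays, at −3.27, −2.14, −2.59 and −1.26 untreated and −4.42, −3.58, −5.77 and −0.96 with PHE. PHE array 4 was above all untreated arrays and the other 3 PHE arrays were below them. On PHE array 4, 95.7% of all probes were well above background, against 70.7 to 73.0% on the other 3. The difference of −1.36 (SE 0.72, adjusted p = 0.129) did not pass. With 1 array left out at a time it ran from −2.27 to −0.67. It passed as lower under 4 alternatives. Without near-term PHE array 4 it was −2.27 (adjusted p = 0.00699), with normexp −1.58 (adjusted p = 0.0162), under quantile normalisation −1.51 (adjusted p = 0.04998) and with replicate number as a block −1.36 (adjusted p = 0.0475; range 0.00699 to 0.570). Within slide 1 it was −2.43. Adult BATF3 was −7.79, −7.82, −7.93 and −7.19 untreated, none well above background, and −3.62, −7.01, −7.37 and −4.20 with PHE, well above background on arrays 1 and 4 only, and was not tested. BATF3 was the only one of the 6 genes with its highest group mean in untreated arteries, those of near-term fetuses (−2.32 ± 0.85 (SD, n = 4)). That rank rests on near-term untreated array 4, the dimmest array, at −1.26. The means then ran premature PHE (−2.45 ± 0.41), newborn PHE (−2.87 ± 0.39), near-term PHE (−3.68 ± 2.03) and adult PHE (−5.55 ± 1.91), followed by the 3 groups not well above background, and each group overlapped the next.

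Differences in the PHE response were tested for 5 pairs of ages, not for adult against premature arteries. Between near-term and newborn arteries, for 10 of 13 AP-1 probes the response differed, against 12.3% of all probes, and 9 of the 10 responded less in newborns. Of the 7 probes named in the array files, 6 responded less in newborns. Among the other 6 probes, 3 responded less and 1 more. Since these 6 were named as altered genes, nothing is read from the count over all 13 against the share of all probes. The difference in response, newborn minus near-term, was −5.25 for FOS A_70_P016316 (SE 1.13, adjusted p = 0.00424), −4.31 for JUN A_70_P016313 (0.61, 0.000123), −2.0 for JUNB A_70_P041671 (0.49, 0.00990) and −5.57 for ATF3 (0.91, 0.000489). In near-term and newborn arteries, FOS untreated means were −2.60 and 0.25 and PHE means 4.94 and 2.54. ATF3 untreated means were −3.36 and 0.29 and PHE means 5.16 and 3.24. JUN untreated means were 0.75 and 1.43 and PHE means 4.74 and 1.11. JUNB untreated means were both −0.60 and PHE means 5.43 and 3.43. The ATF3 size rests in part on near-term untreated levels not well above background. BATF3 went the other way, with a larger response in newborns (adjusted p = 0.00197). No size is read from it, since newborn untreated levels were not well above background and the near-term difference did not pass. The exceptions were FOS A_70_P001561 at −3.32 (adjusted p = 0.128) and JUND at −1.44 (0.0968) on A_70_P041716 and 0.021 (0.982) on A_70_P060551. The A_70_P001561 difference passed without newborn untreated array 2 (0.0230; range 0.0230 to 0.629) and that of A_70_P041716 without near-term untreated array 4 (0.0315) or with normexp (0.0148; range 0.0148 to 0.666). JUNB A_70_P041671 did not pass with slide as a block (−1.0, adjusted p = 0.236) or with only these 4 groups in the fit (0.0859; range 0.00194 to 0.236), and the count under the slide block, where the near-term arm has 1 untreated array, was 9. The near-term groups hold the 3 dim arrays and span 3 slides, and without those arrays the count was 11. Near-term arrays were scanned on another day than newborn and premature ones, and the part of scan day in these differences cannot be told apart from age.

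Near-term and premature arteries differed for 3 of 13 probes (5.05% of all), 2 of the 7 named in the array files and 1 of the 6 named through the table. The first 2 were JUN A_70_P016313 and A_70_P016311, whose responses were larger near term by 3.99 (SE 0.61, adjusted p = 0.000820) and 4.47 (0.88, 0.00478). The other was BATF3, whose response was smaller near term (adjusted p = 0.00310). No size is read from it, since premature untreated levels were not well above background and the near-term difference did not pass. The BATF3 call was lost with normexp (−2.24, adjusted p = 0.0857; range 8.64e-05 to 0.0857). The count was 5 without near-term untreated array 2, 7 without near-term PHE array 1 and 5 without newborn untreated array 2. FOS A_70_P016316 at 3.41 (adjusted p = 0.0739) did not pass, but it did without each of those 3 arrays (0.0452, 0.0288 and 0.0386) and with only these 4 groups in the fit (0.0259; range 0.0259 to 0.169). JUNB A_70_P041671 was at 0.11 (0.928), and its sign turned with slide as a block (−0.88), under quantile normalisation (−0.38) and without near-term untreated array 1 (−0.057).

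Adult and near-term arteries differed for 7 of 13 probes (12.3%). Of the 7 named in the array files 4 differed, and the rest were among those named through the table. The adult response was smaller for JUN A_70_P016313 (−2.65, adjusted p = 0.00718) and A_70_P016311 (−3.72, 0.00852), JUNB A_70_P041672 (−1.64, 0.0169) and A_70_P050386 (−3.23, 0.00643), JUND A_70_P041716 (−1.97, 0.0257) and ATF3 (−3.48, 0.0151). The ATF3 size again rests in part on near-term untreated levels not well above background. The BATF3 probe is the seventh (adjusted p = 0.0260), but its adult levels were well above background on 2 of 8 arrays, both with PHE, so neither a size nor a larger adult response is read from it. With slide as a block, which leaves near-term untreated array 4 alone against the near-term PHE arrays, only BATF3 passed, a count of 1. With only these 4 groups in the limma fit JUN A_70_P016313 had an adjusted p of 0.145 (range 0.00182 to 0.352) and JUNB A_70_P041672 of 0.108 (range 0.00570 to 0.234), where no other AP-1 probe passed either. With normexp the count was 4, without JUNB or ATF3. Single arrays also ended calls. JUND A_70_P041716 did not pass with scaling to the array median (0.0761), without near-term PHE array 2 (0.0506), adult untreated array 3 (0.0630) or 4 (0.0545) or adult PHE array 1 (0.0563; range 0.00494 to 0.600), nor BATF3 without near-term PHE array 3 (0.0748), adult untreated array 3 (0.0567) or adult PHE array 1 (0.0595) or 4 (0.0607; range 0.00280 to 0.226).

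No AP-1 probe passed in limma for adult against newborn (0.0961% of all probes) or newborn against premature arteries (0.0194%). At an unadjusted p below 0.05, 6 responses were larger in adults than in newborns and 5 were smaller in newborns than in premature fetuses. FOS A_70_P016316 differed by 3.55 (adjusted p = 0.346) between adults and newborns and JUN A_70_P048401 by 2.46 (0.182). Between newborns and premature fetuses JUNB A_70_P041672 differed by −1.92 (0.217) and ATF3 by −3.33 (0.415). With only these 4 groups in the fit ATF3 (0.0454; range 0.0454 to 0.968) and JUNB A_70_P050386 (0.0482; range 0.0482 to 1.00) passed. The newborn against premature count was 2 also without newborn untreated array 2, for JUNB A_70_P041671 (−2.25, adjusted p = 0.0493) and A_70_P041672 (−2.27, 0.0216), with ranges of 0.0493 to 0.857 and 0.0216 to 0.708. The comparisons share groups with one another, so their counts are not independent.

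Untreated arteries differed in JUNB and ATF3 between newborns and premature fetuses. Of 12 AP-1 probes tested 4 were higher in newborns, against 11.8% of all probes in either direction. They were 2 of the 7 named in the array files and 2 of the 5 tested that were named through the table. JUNB was higher by 1.23 (SE 0.35, adjusted p = 0.0168) on A_70_P041671, 1.22 (0.00761) on A_70_P041672 and 1.68 (0.0272) on A_70_P050386, and ATF3 by 2.94 (SE 0.64, adjusted p = 0.00227). The groups overlapped for A_70_P041671 and A_70_P041672 and not for A_70_P050386 and ATF3. Each age lay on a slide of its own, so age and slide cannot be told apart, and none of the 4 passed with slide as a random block (adjusted p = 0.320, 0.244, 0.406 and 0.155). With the methods' test only ATF3 passed, adjusted or not. With normexp ATF3 was at 1.75 (adjusted p = 0.0652) and the 3 JUNB probes did not pass either (lowest adjusted p 0.104); the ranges were 0.000661 to 0.155 for ATF3 and 0.00210 to 0.320 for A_70_P041671. Newborn untreated arrays 2 and 4 set the count, which was 7, with all 3 FOS probes, without array 2 and 1 without array 4, and it was 2 without newborn untreated array 3 or premature untreated array 3. A_70_P050386 was also lost without premature untreated array 1 (0.0610; range 0.00818 to 0.406). FOS A_70_P016316 differed by 1.83 (adjusted p = 0.141) in the full fit and JUN A_70_P016313 by 0.61 (0.409). Of the cell markers, CNN1 (1.85), CALD1 (2.58) and FABP4 (5.46) were higher in newborns, and DCN (−1.61) and HBB (−2.54) were lower. FABP4 was well above background on 1 premature untreated array. The other markers tested, among them HBA1, COL1A1, CD14 and TUBB3, did not pass. The part of cell content in these AP-1 differences was not tested.

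Between untreated adult and near-term arteries 6 of 12 AP-1 probes passed, close to the 44.4% of all probes, so this share says nothing particular about AP-1. Of the 7 probes named in the array files 3 passed. JUNB was higher in adults by 1.11 (adjusted p = 0.00942) on A_70_P041671, 1.56 (0.000162) on A_70_P041672 and 2.55 (0.000188) on A_70_P050386, JUND on A_70_P041716 by 1.06 (0.0303) and ATF3 by 2.87 (0.000587). ATF3 was tested here through the adult group only, since it was well above background on 2 of the 4 near-term arrays, and its difference rests in part on the levels of the others. BATF3, not well above background on any adult untreated array, was at least 14.1-fold lower in adults on the signal as scaled here (adjusted p = 9.31e-07). Its log2 difference ran from −5.68 to −3.14 over the alternatives, the latter smaller than that bound. ATF3 and JUNB A_70_P050386 were lost with normexp (0.74, adjusted p = 0.292, and 0.53, 0.392; ranges 2.52e-05 to 0.292 and 2.05e-06 to 0.392), and JUND without near-term untreated array 2 (0.185) or adult untreated array 3 (0.0834) or 4 (0.102; range 0.00196 to 0.257). With the methods' test and adjustment only JUNB A_70_P041672 and BATF3 passed. With only the 2 groups compared in the fit, JUNB A_70_P041671 (0.0679, range 0.000164 to 0.136) and JUND (0.148) were lost. FOS and JUN did not pass here, with 0.35 (adjusted p = 0.740) and 0.19 (0.737). The sign of FOS turned with normexp (−0.74) or without adult untreated array 1 (−0.31). That of JUN turned without adult untreated array 3 (−0.17) or 4 (−0.11) or near-term untreated array 2 (−0.093). Of the cell markers, HBB was at least 42.0-fold lower in adults, and CD3E (−2.16), DCN (−1.67) and GFAP were also lower. Among markers named through the table, CD14 (−2.41), CD68, HBA1, COL1A1 (−2.17) and COL1A2 were lower and TUBB3 (1.18) was higher. CNN1, CALD1 and FABP4 did not pass. Whether cell content had a part in these AP-1 differences was not tested.

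The named genes whose levels over the 32 arrays were most like each AP-1 gene were found among 2048 named genes. JUNB was most like NR4A1 (r = 0.979), BTG2 (0.967) and GADD45B (0.952), and ATF3 most like NR4A1 (0.944), IER5 (0.937) and CEBPB (0.934). FOS was most like MCM2 (0.924), PCF11 (0.905) and NR4A1 (0.903), JUN most like PLB1 (0.824), SPECC1L (0.822) and KLF2 (0.812). JUND on A_70_P060551 was most like UBB (0.837), PHC2 (0.831) and SERTAD1 (0.83), and BATF3 most like OBFC2A (0.892), NIPAL1 (0.875) and UCN (0.849). All but UBB among these were named through the table of altered genes, which holds genes that changed with PHE, so high r values with a gene that also changed follow in part from that choice.

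Other basic leucine zipper genes that can join or compete with AP-1 had a named probe for 7 of the 20 looked at. CREM, which encodes repressors and activators of cAMP-responsive genes, was named independently of the table and rose at each age, by 6.84, 4.69, 6.17 and 6.19 (adjusted p = 5.09e-10, 5.58e-07, 9.19e-09 and 2.61e-09). ATF6, an unfolded protein response factor and the other independently named gene, was well above background on 1, 1 and 0 of the untreated arrays in premature, near-term and newborn arteries and was tested there through the PHE group only. It passed as higher in premature (0.00910) and newborn arteries (0.0395, at least 2.34-fold) and not near term. Of the 5 named only through the table, FOSL2, a Fos family member, rose at each age (2.86, 2.11, 1.67 and 1.82), as did ATF4. CREB1 passed near term (2.00) and at no other age, MAFG did not pass in adults, and NFE2L2 passed at the fetal ages. Near term CREB1, MAFG and NFE2L2 were tested through the PHE group only, as was MAFG in premature arteries. The counts higher of these 5 were 4, 5, 3 and 2 at the 4 ages, beside 9.54%, 17.9%, 6.29% and 3.16% of all probes, and since they were named as altered genes, nothing is read from these counts. None was lower, and their median differences were 1.87, 2.00, 1.22 and 0.57.

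Upstream of AP-1, from the alpha1-adrenergic receptors through Gq and protein kinase C to the MAP kinases, 3 of the 28 genes looked at had a named probe, all through the table. MAPK14, the p38alpha kinase, fell at each age (−1.22, −0.80, −1.08 and −0.77; adjusted p = 9.40e-05, 0.00351, 0.000575 and 0.0283). MAP2K3, a kinase that activates p38, rose in premature (1.92), near-term (0.96) and newborn (1.55) arteries. MAPK8, a Jun kinase, rose in premature (0.91) and newborn arteries (1.05). The receptor genes themselves had no named probe and were not analysed here.

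Classical AP-1 targets had a named probe for 20 of 25 genes, 10 of them named independently of the table. Of these 10, 4 of 8 tested rose in premature, 4 of 8 in near-term, 5 of 8 in newborn and 4 of 7 in adult arteries, beside 9.54%, 17.9%, 6.29% and 3.16% of all probes, none fell, and their medians were 2.73, 2.31, 2.54 and 4.31, unchanged with genes at their detection bounds. IL6 at each age, and CXCL8 at all but the premature age, were tested through the PHE group only, where a gene has to be high, so nothing is read from these counts and medians against the share of all probes. The inflammatory genes IL6, CXCL8 and PTGS2 (cyclooxygenase 2) and the growth regulator MYC rose at each age. IL6 was well above background on none of the premature, newborn and adult untreated arrays and on 1 near-term untreated array, and it was at least 1127-fold, 363-fold and 140.2-fold higher with PHE in premature, newborn and adult arteries (adjusted p = 5.04e-12, 1.98e-10 and 3.59e-10). PTGS2 rose by 5.81, 5.49, 5.10 and 4.31 and MYC by 4.22, 4.17, 4.05 and 5.06, in order of age. TIMP1, a metalloproteinase inhibitor, rose in newborn arteries (1.03, adjusted p = 0.0158) and was at 0.56, −0.30 and 0.58 in premature, near-term and adult arteries, which did not pass. EDN1, FGF2 and TGFB1 passed at no age, with FGF2 at 1.23 and TGFB1 at 0.38 in premature arteries. Of the 10 targets named only through the table, 7 of 10, 4 of 8, 6 of 10 and 3 of 8 rose, from which likewise nothing is read, and among them VEGFA rose in premature (1.75), newborn (2.23) and adult (2.22) arteries, and COL1A1 near term. VEGFA did not pass near term (0.84, adjusted p = 0.0594), and in adults it was tested through the PHE group only.

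**Figure D4:**
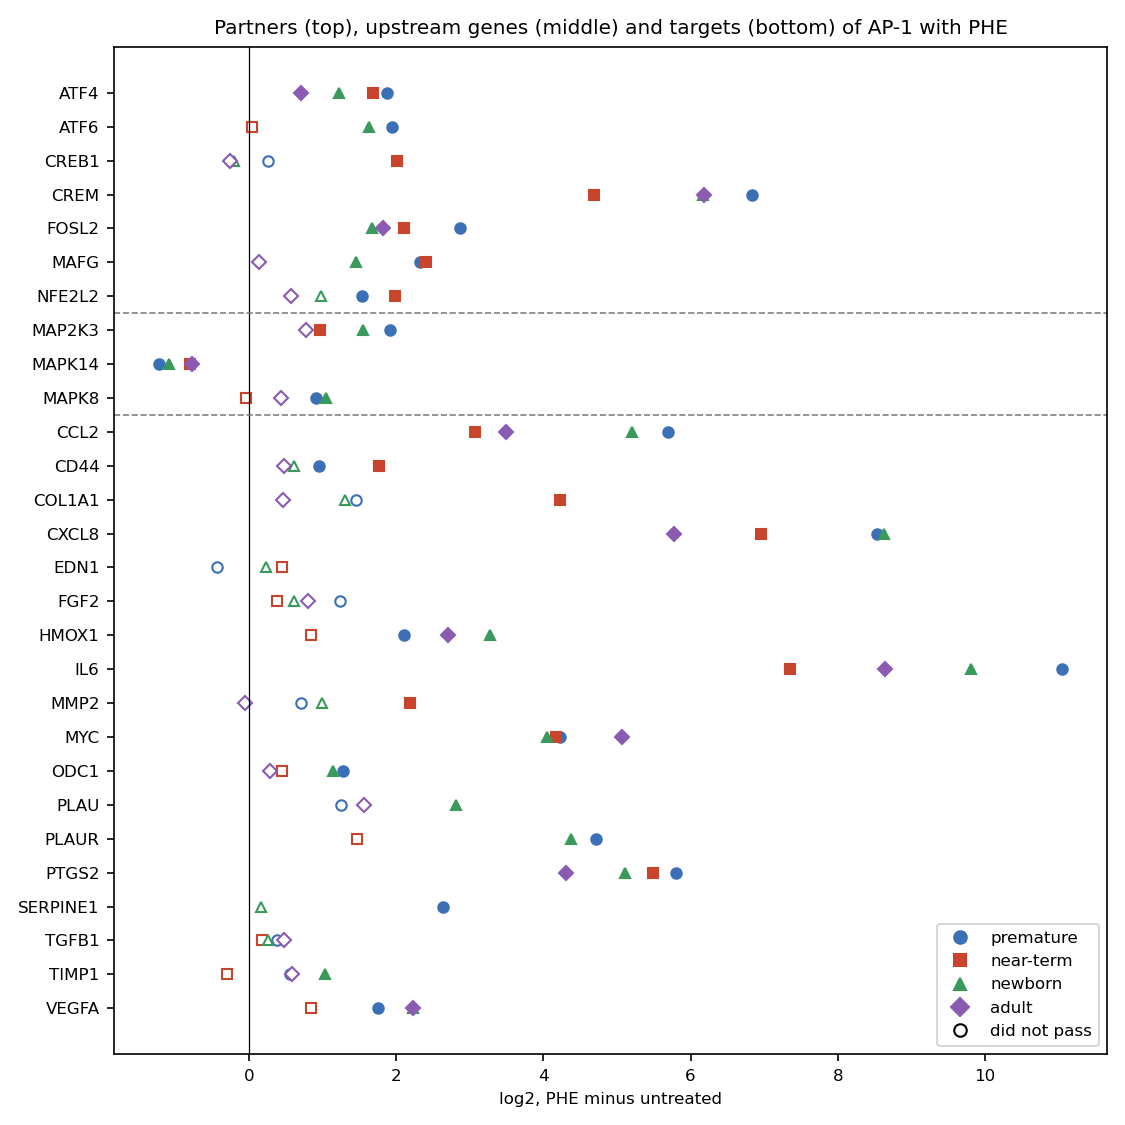
Difference between PHE and untreated arteries (log2) at each age for the genes that can partner AP-1, act upstream of it or are classical targets. Filled points passed and open points did not. CREM, IL6, CXCL8, PTGS2 and MYC lie far above 0 at all 4 ages and MAPK14 lies below 0.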

How the data were processed

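The authors hybridised labelled cRNA, amplified from total RNA, to single-colour Agilent sheep arrays and read the spots with the scanner software Feature Extraction (Agilent, 9.5.3.1 in the file headers). The deposited values are spot intensity on a linear scale, as the background-subtracted processed signal, which the deposited matrix repeats exactly. Of 15744 spots on an array, 536 were control spots and were left out, as were outlier spots (1 to 53 an array), and spots of a probe were averaged to 15008 probes. Log2 processed signal minus the array's 75th percentile was fitted with limma 3.58.1 in R 4.3.3 (lmFit and eBayes, 8 group means over 32 arrays, all sharing 1 estimate of spread), with Benjamini-Hochberg adjustment over all probes tested. The script was first tested on simulated data. The number of arrays limits the precision. The differences in PHE response between ages are interaction contrasts of the same fit.

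Names came from the accession through RefSeq (assembly ARS-UI_Ramb_v3.0, used for names only) for 543 probes, from the array files for 845 and from the authors' table of altered genes for 1851, while 11769 stayed unnamed. For the last kind a probe took a gene's name where its mean signals in both groups of an age matched that gene's alone within 0.1% (0.3% in premature arteries, and without near-term PHE array 1 near term). This gave 957, 1101, 1012 and 437 single matches in premature, near-term, newborn and adult arteries, and a shifted copy of the table, as a control, gave 71, 3, 4 and 1. Of 182 probes also named independently, 117 names were the same letter for letter. The columns of fold changes and p-values in that table were not used. All probes that carried the name of one of the 6 genes were taken, and further probes of these genes may be among the unnamed ones. The members of the gene lists were counted (4 listed genes were left out of them afterwards, not for their values). For likeness the 3 named genes of highest r per AP-1 gene were given. The members and lists were chosen with earlier results of these data known.

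Whether replicate numbers pair the samples was checked by correlating, over 7144 probes, the deviations of same-numbered untreated and PHE arrays from their group means. The r values were 0.354 to 0.544 in premature and 0.491 to 0.592 in newborn arteries, above the 0.1 set for pairing, so the numbers were taken to pair those samples. Nothing in the labels says what a number shares. Alternatives were quantile normalisation, scaling to the median, normexp on mean and background signals, no filter on dim probes, the deposited matrix, only the groups compared, 1 probe a gene, the test of the study's methods, replicate and slide blocks, and leaving out each array.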

Additional observations from a re-analysis of the deposited data

Results flagged for a closer look

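In 5 of 104 groups of 4 arrays, 1 array stood apart from the other 3 by more than the limit for its gap over the group's range, and chance alone gives about 1 in 20. FOS A_70_P016317 read 2.33 on adult PHE array 4, where the nearest array read 3.63. JUN A_70_P016313 read 1.51 on that same array (nearest 2.48), which was the lowest of its group for both genes. JUNB A_70_P041672 read −0.76 on near-term untreated array 4, the dimmest array (nearest −1.33). JUND A_70_P041716 read 1.87 on newborn PHE array 4 (nearest 1.20), and BATF3 read −3.07 on premature PHE array 1 (nearest −2.30).

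The response to PHE differed between ages in 20 tests of AP-1 probes (log2 differences of the response). Near-term against premature arteries, it differed by 4.47 for JUN A_70_P016311, 3.99 for JUN A_70_P016313 and −5.64 for BATF3, whose fitted values here and below include levels below background and are not sizes of the response. Newborn against near-term arteries, the differences were −5.45, −4.31 and −2.95 for JUN A_70_P016311, A_70_P016313 and A_70_P048401, and −5.25 and −5.53 for FOS A_70_P016316 and A_70_P016317. They were −2.0, −2.41 and −4.21 for JUNB A_70_P041671, A_70_P041672 and A_70_P050386, −5.57 for ATF3 and 5.20 for BATF3. Adult against near-term arteries, they were −3.72 and −2.65 for JUN A_70_P016311 and A_70_P016313, −1.64 and −3.23 for JUNB A_70_P041672 and A_70_P050386, −1.97 for JUND A_70_P041716, −3.48 for ATF3 and 3.50 for BATF3. The sizes for ATF3 and FOS A_70_P016317 rest in part on near-term untreated levels not well above background. All 3 comparisons involve the near-term groups, which hold the 3 dimmest arrays and lie on slides 1, 2 and 3, and the part of slide and brightness was not tested beyond the alternatives given. Those with premature and newborn arteries also cross the scan days, which cannot be told apart from age.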

How the results depend on the processing

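Of 628 comparisons of a probe's PHE result with its value under 13 other settings, 581 kept direction and side of the threshold, 26 lost the call, 19 gained one and 2 turned sign. With 1 array left out at a time (32 arrays), 1601 of 1632 kept both, 8 lost the call, 17 gained one and 6 turned sign. JUN A_70_P016313 in premature arteries turned from −0.0019 to 0.15 with normexp and 0.0055 with quantile normalisation (−0.17 to 0.19 with 1 array left out), and JUN A_70_P016311 in newborns ran from −0.55 to 0.041. Counts of probes higher with PHE, 10, 12, 6 and 8 from premature to adult, were 5, 5, 3 and 3 with 1 probe a gene (of 6, 6, 6 and 5 genes tested), where fewer probes lower the count by construction. With the methods' test they were 10, 11, 7 and 9 unadjusted, and with Benjamini-Hochberg adjustment 10, 2, 6 and 0. With 1 array left out they ran 10 to 10, 11 to 12, 5 to 10 and 7 to 10. Numbers of probes whose response differed were 3 (3 to 7 with 1 array left out) for near-term against premature, 10 (10 to 11) for newborn against near-term, 0 (0 to 0) for adult against newborn, 0 (0 to 2) for newborn against premature and 7 (5 to 8) for adult against near-term arteries. With only the groups compared they were 5 for near-term against premature, 2 for newborn against premature and 0 for adult against near-term arteries. The last was 4 with normexp, 1 with slide as a block and 3 with 1 probe a gene, which also gave 5 for newborn against near-term. Untreated newborn against premature arteries, 4 probes (1 to 7), gave 2 with only the groups compared, 0 with normexp, 0 with slide as a random block (within-slide correlation 0.268), 2 with 1 probe a gene, and 1 with the methods' test, adjusted or not. Untreated adult against near-term arteries, 6 probes (5 to 6), gave 3 with 1 probe a gene and 2 with the methods' test adjusted. With replicate number as a block the PHE counts were 10, 11, 9 and 8 and the interaction counts, in the order above, 4, 10, 0, 0 and 8. Near-term and adult numbers shared too little to pair samples (r of −0.196 to 0.335 and −0.0958 to 0.0387). Beyond the newborn FOS calls, the block brought BATF3 near term past the threshold (0.0475; range 0.00699 to 0.570) and took JUND A_70_P060551 near term below it (0.0687; range 0.000134 to 0.547), and among interactions it added FOS A_70_P016316 for near-term against premature (0.0480; range 0.0259 to 0.169) and JUNB A_70_P041671 for adult against near-term (0.0491; range 0.0176 to 0.804); it changed no other call. With slide as a block the PHE counts were 10, 11, 6 and 10. The setting chosen after seeing the data, without the 3 dimmest arrays, gave interaction counts of 3, 11, 0, 0 and 7. Scaling moved the median difference of all probes by over 0.1, with median scaling by −0.12 in the premature and −0.15 in the near-term PHE comparison, with normexp by −0.13, −0.34 and 0.12 in the premature, near-term and newborn ones, and between untreated adult and near-term arteries by 0.29 with quantile normalisation, 0.52 with median scaling and −0.42 with normexp. AP-1 differences are to be read relative to these shifts. Interaction medians moved by 0.13 with quantile and −0.30 with normexp for near-term against premature, by −0.12, 0.14 (median) and 0.44 for newborn against near-term, by 0.11 (median) and 0.19 (normexp) for newborn against premature and by 0.39 (normexp) for adult against near-term, and the untreated newborn against premature median by −0.16 (normexp). Higher and lower calls over all probes, 1778 and 1854 with PHE near term, were 762 and 3565 with normexp, and those in newborns, 616 and 554, were 511 and 219 with median scaling and 421 and 250 with normexp. For the interactions near-term against premature, 293 and 248, they were 576 and 294 with quantile normalisation and 95 and 306 with normexp. For newborn against near-term, 479 and 822, they were 3177 and 489 with normexp. For adult against newborn, 7 and 3, they were 9 and 13 with quantile normalisation, 6 and 5 with median scaling and 7 and 0 with normexp, and for adult against near-term, 553 and 719, they were 445 and 949, 117 and 441, and 2251 and 385. For untreated adult against near-term arteries, 2038 and 2278, they were 3076 and 1545, 3666 and 1143, and 1439 and 4153, in the same order of settings. On near-term untreated array 4 the signal over background limits what can be measured. The causes were not tested.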
